A study of Mus musculus with 7 samples.

Results

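The regions described here had an ATAC-seq peak in both libraries of RANKL with I-BET and in both untreated libraries, and in neither library of RANKL alone. ATAC-seq marks accessible DNA by the places where a transposase inserts adapters. Peaks of all 7 libraries that overlapped or touched were joined into 344401 regions on mm10, and a region counted as called in a library when a peak of that library covered 1 bp or more of it. This rule gave 275 regions, or 0.0798% of all. The members were chosen by the peak calls of 6 libraries, so these calls are given as a description and were not tested, while the I-BET library without RANKL was left free. The cells were RAW264.7, an established mouse monocyte-macrophage line. The groups were RANKL (50 ng/ml) with I-BET (500 nM) for 4 h (2 libraries), I-BET (500 nM) for 4 h (1 library, labelled replicate 2), RANKL (50 ng/ml) for 4 h (2 libraries) and untreated cells (2 libraries). The labels name no vehicle for I-BET and give no word on separate cultures for the replicates, so the spread between libraries of a group may be technical.

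RANKL is the cytokine that drives monocytic cells toward osteoclasts, the cells that resorb bone. Its receptor signals through TRAF adaptors to NF-kB and AP-1 transcription factors, which act at promoters and distal enhancers. BET proteins bind acetylated histones at such elements, and I-BET blocks that binding. The pattern asks whether places accessible in untreated cells and lost early after RANKL are accessible when the inhibitor is present. A missing call is no measure of closing, since a peak list does not give the signal below its threshold, so the regions are named here by their calls.

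Libraries differed in length of list and in noise. The lists held 117175 to 166369 peaks, and read depth is unknown because no counts are given. RANKL replicate 1 had 154069 peaks and RANKL replicate 2 had 132626, against 136739 in untreated replicate 1 and 117175 in untreated replicate 2, so list lengths of the 2 groups overlapped. Untreated replicate 1 stood apart, with 42.9% of its regions called in no other library, against 8.95% to 27.1% in the other 6. Of 27 macrophage identity genes, 26 or 27 had a peak within 1 kb of the gene in each library, but so did 8 or 9 of 12 B lymphocyte markers, so a peak at a gene does not tell cell types apart.

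Start sites were taken from the RefSeq promoter table for GRCm38.p6, the assembly of mm10, which covers 17491 of 21896 protein-coding genes. The share of all merged regions that hold a start was not counted. Among the 275 members, 5 held a transcription start of a protein-coding gene in that table. These starts belonged to Pglyrp1, which encodes a secreted protein that binds bacterial peptidoglycan, Sfrp2, which encodes a secreted Wnt antagonist, Krtap5-4, a keratin-associated protein gene, Krtcap3, and Apoa5, an apolipoprotein gene of triglyceride metabolism. The 250 bases before the start are shown for the first 4, 5′ to 3′ on the plus strand, because members at start sites are those whose sequence could be read. Capitals mark matches to the motifs searched. The Pglyrp1 stretch (chr7:18884440-18884689) and the Sfrp2 stretch (chr3:83766071-83766320) lay wholly inside their members. Of the Krtap5-4 stretch (chr7:142303252-142303501) 161 bases, and of the Krtcap3 stretch (chr5:31251456-31251705) 68 bases, lay inside.
Pglyrp1: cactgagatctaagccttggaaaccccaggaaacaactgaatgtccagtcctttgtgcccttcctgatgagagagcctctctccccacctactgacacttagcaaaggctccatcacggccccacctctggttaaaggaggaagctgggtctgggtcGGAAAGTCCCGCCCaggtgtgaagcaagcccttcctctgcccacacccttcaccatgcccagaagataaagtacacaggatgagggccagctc
Sfrp2: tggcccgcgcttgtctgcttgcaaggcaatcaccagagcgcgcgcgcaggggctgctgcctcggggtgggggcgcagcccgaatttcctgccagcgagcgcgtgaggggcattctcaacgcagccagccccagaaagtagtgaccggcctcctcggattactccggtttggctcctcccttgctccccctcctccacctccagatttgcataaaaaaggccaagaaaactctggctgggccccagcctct
Krtap5-4: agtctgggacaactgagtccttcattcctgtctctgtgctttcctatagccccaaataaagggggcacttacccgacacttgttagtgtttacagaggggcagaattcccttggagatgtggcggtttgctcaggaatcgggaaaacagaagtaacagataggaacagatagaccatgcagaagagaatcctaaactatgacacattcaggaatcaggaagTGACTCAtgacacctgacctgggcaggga
Krtcap3: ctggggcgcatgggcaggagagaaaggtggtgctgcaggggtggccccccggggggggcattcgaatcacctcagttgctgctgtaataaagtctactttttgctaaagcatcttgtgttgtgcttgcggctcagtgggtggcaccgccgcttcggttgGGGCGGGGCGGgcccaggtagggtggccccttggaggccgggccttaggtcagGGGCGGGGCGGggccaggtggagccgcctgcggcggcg

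Both strands of these stretches were searched for AP-1 (TGANTCA), PU.1 (GAGGAAGT), Runx (TGTGGTT), E-box (CACGTG), GC box (CCGCCC) and C/EBP (TTGCGCAA) letters and for NF-kB, IRF and CTCF consensus letters. In Pglyrp1, a match to NF-kB letters began at -93 from the start, and a GC box that shares 2 of its bases began at -85. Of all 32851 such stretches in the table, 0.356% held the NF-kB letters and 32.7% a GC box. Krtap5-4 had a match to AP-1 letters at -29, inside the member, and 6.75% of all stretches held one. Krtcap3 had 4 GC boxes, in overlapping pairs that share 1 base, of which 2 lay inside the member. Sfrp2 had 0 matches to the 9 motifs. The other shares over all stretches were 2.44% for PU.1, 4.40% for Runx, 6.02% for the E-box, 0.164% for C/EBP, 2.98% for IRF and 0.295% for CTCF. A match describes letters only, and whether a factor bound there was not measured.

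Absence from both RANKL libraries was rare among regions called in both groups. Of 46561 regions called in both RANKL+I-BET and both untreated libraries, 44740 were also called in both RANKL libraries, and the 275 members made up 0.591%. Another 693 had a peak in RANKL replicate 1 alone and 853 in RANKL replicate 2 alone, so a single missing RANKL call was more frequent than 2 missing ones. On the other side of the rule, 632 regions lacked only the peak of RANKL+I-BET replicate 1, 120 lacked only that of RANKL+I-BET replicate 2, 846 lacked only that of untreated replicate 1 and 778 lacked only that of untreated replicate 2. Members were 6.01% of the 4577 regions called in both RANKL+I-BET and neither RANKL library, and 14.4% of the 1910 called in both untreated and neither RANKL library. They were 1.62% of the 16924 regions called in exactly 4 of these 6 libraries.

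**Figure D1:**
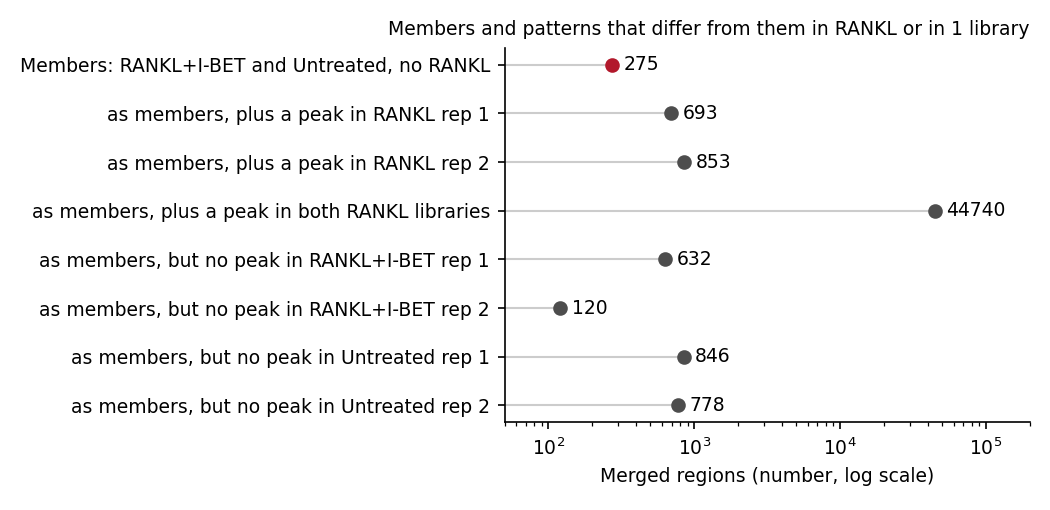
Number of merged regions (log axis) for the members and for patterns of calls that differ from theirs in RANKL or in 1 library. The 275 members are fewer than the 693 and 853 regions that have a peak in 1 RANKL library, and the 44740 regions called in all 6 libraries far exceed all other patterns shown.

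Regions at the edge of the rule show how little can separate a member from a region that missed. The single RANKL peaks with the lowest percentile lay at Ppp2r1b, a subunit gene of protein phosphatase 2A (50885962 to 50887197 on chromosome 9), and at Inpp5a, an inositol phosphatase gene (139413149 to 139413813 on chromosome 7). In RANKL replicate 1 the peak at Ppp2r1b had a deposited fold of 1.95 over local background and was at the 0.253 percentile of its list. In RANKL replicate 2 the peak at Inpp5a had a fold of 2.30 and was at the 0.468 percentile. The next 3 were at Sbno2, a transcriptional regulator gene that takes part in osteoclast precursor fusion in mice, Gna11, a G protein gene, and Zc3h10, all at the 2.70 percentile of RANKL replicate 1. The 5 members just inside the rule were at Slc2a1, a glucose transporter gene, Hdac4, a histone deacetylase gene, Rpgrip1, Cfap46 and Abcc12, each with its weakest required peak between the 0.133 and 0.854 percentile.

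The members' peaks were weak within their own lists. The strongest peak of a member was at a median percentile of 34.2 by -log10 p in the first RANKL+I-BET library (0.133 to 81.9) and 31.6 in the second (1.67 to 70.5). It was at 40.8 in the first untreated library (0.854 to 85.8) and 28.8 in the second (0.423 to 67.9). The 44740 regions called in all 6 libraries had medians of 80.9, 85.9, 81.9 and 79.6 in the same libraries. Regions closer to the members' pattern also had medians below these, though in some libraries above the middle of the list. Those with a further peak in RANKL replicate 1 had medians of 41.0 and 44.5 in the RANKL+I-BET libraries and of 55.0 and 28.8 in the untreated libraries, and those with a further peak in RANKL replicate 2 had 34.2 and 56.6, and 55.0 and 41.0. Regions of both untreated libraries alone had medians of 40.8 and 10.99 there, and those of both RANKL+I-BET libraries alone 25.8 and 22.2, so weak peaks were not particular to the members. By percentile, the weakest of a member's 4 required peaks was most often that of untreated replicate 2 (103 members). It was least often that of untreated replicate 1 (37), with 72 and 63 in the first and second RANKL+I-BET libraries. A percentile depends on the other peaks of its list. The members' median -log10 p was lowest in untreated replicate 1, at 4.14, against 5.48 in untreated replicate 2 and 4.80 and 7.63 in the RANKL+I-BET libraries. The folds and -log10 values come from the authors and rank peaks within a single list. Where folds of several libraries are printed for a member, they describe each library, and no difference between groups is read from them.

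**Figure D2:**
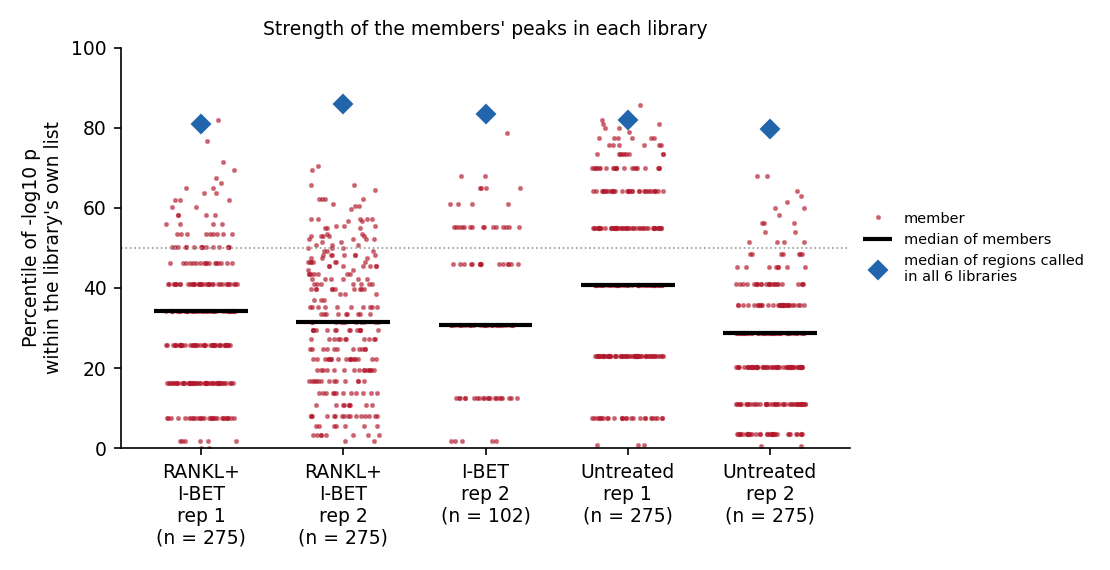
Percentile of the deposited -log10 p of each member's strongest peak within the list of each library that called it (points), with the members' median (black line) and the median of regions called in all 6 libraries (blue diamond). The members' medians run from 28.8 to 40.8, below the middle of every list (dotted line), while the diamonds lie between 79.6 and 85.9; bands of points are tied -log10 p values.

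By the stricter threshold of a deposited -log10 q of at least 5, 32 members passed in the first and 165 in the second RANKL+I-BET library, against 19 in the first and 56 in the second untreated library. These are 11.6% and 60.0% of the members in the RANKL+I-BET libraries and 6.91% and 20.4% in the untreated libraries. Of all peaks in the same lists, 48.1% and 74.0% passed in the RANKL+I-BET libraries and 25.3% and 61.3% in the untreated libraries, so the order of the libraries was that of the whole lists. Passing in 0 of the 4 libraries were 87 members, in 1 library 117, in 2 libraries 59 and in 3 libraries 11. A single member passed in all 4, at 34927579 to 34928117 on chromosome 5, 590 bp from Msantd1. Its -log10 q was 22.6 and 15.7 in the RANKL+I-BET libraries, against 6.45 and 6.14 in the untreated libraries, and each library's list has its own scale. The nearest RANKL peak was 7699 bp away, and the I-BET library did not call the region. When only peaks at that threshold entered any list, 36 regions met the rule, and 35 of them had a weaker RANKL peak, the exception being the region at Msantd1.

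The I-BET library without RANKL, the measure that the rule did not use, called 102 of the 275 members, or 37.1% (exact Clopper-Pearson 95% interval 31.4% to 43.1%, counting error only). It called 35.9% of all merged regions, which lies inside that interval. However, all merged regions include those called in 1 library alone, and no member can be of that kind. Regions of the I-BET library alone (27.1% of its regions) raise the share over all regions. Regions of 1 other library alone (8.95% to 42.9% of each library's regions) lower it. The closeness of these 2 shares therefore does not place the members at a background level. Regions called in exactly 4 of the 6 libraries were called in 51.2% (50.4% to 51.9%), and the regions with 1 further peak in RANKL replicate 1 or RANKL replicate 2 in 55.3% (51.5% to 59.0%) and 65.9% (62.6% to 69.1%). Of the regions that lacked 1 of the members' 4 calls, the I-BET library called 36.1% (32.8% to 39.4%) of those without untreated replicate 1, close to the members' share. It called 28.6% of those without RANKL+I-BET replicate 1, 20.1% of those without untreated replicate 2 and 14.2% of those without RANKL+I-BET replicate 2. Regions called in both libraries of a single group had shares of 18.3% (16.8% to 19.8%) for those of both RANKL+I-BET libraries alone, 9.56% (7.86% to 11.5%) for those of both RANKL libraries alone and 9.51% (7.66% to 11.6%) for those of both untreated libraries alone. The members' share lay below that of regions called in 4 of the 6 libraries and above those of regions of a single group. Regions are no replicates, so no test was made. Peak strength and distance to a RANKL peak moved with this share, and their part in it was not tested. It was 44.4% (35.9% to 53.2%) in the 135 members whose weakest required peak ranked above the members' median, against 30.0% (22.6% to 38.3%) in the other 140. It was 46.3% (37.7% to 55.1%) in the 136 members with a RANKL peak within 1 kb, against 28.1% (20.8% to 36.3%) in the 139 without. Inside and outside genes it was 36.8% and 37.5%.

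**Figure D3:**
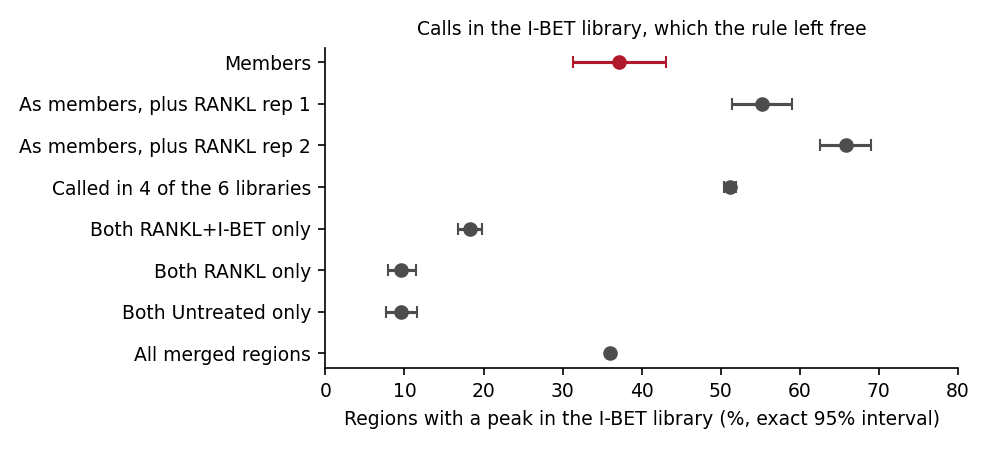
Share of regions with a peak in the single I-BET library (points, with exact 95% intervals), for the members and other classes of calls. The members (37.1%) lie close to all merged regions (35.9%), below regions called in 4 of the 6 libraries (51.2%) and above regions of a single group (9.51% to 18.3%). All merged regions include those called in the I-BET library alone, which no member can be.

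Peaks in 1 member did not always mark the same position. In 174 members (63.3%) at least 1 base was covered by peaks of all 4 required libraries, and in the other 101 the 4 libraries were joined through partly overlapping peaks. The median distance between summits was 102 bp for the 2 RANKL+I-BET libraries and 134 bp for the 2 untreated libraries. Across the groups it was 147 bp between the libraries numbered 1 and 94 bp between those numbered 2, and between unlike numbers it was 132 and 113 bp, so the medians across groups (94 to 147 bp) covered those within groups. All 4 summits lay within 100 bp of each other in 37 members (13.5%). Members had a median length of 605 bp (152 to 1750), against 583 bp in regions called in 4 of the 6 libraries and 308 bp in all regions.

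RANKL peaks were often near. The nearest RANKL peak lay a median of 1006 bp from a member, within 1 kb for 136 members (49.5%) and within 5 kb for 241 (87.6%). Among regions of both RANKL+I-BET libraries alone 40.4% had a RANKL peak within 1 kb, and among regions of both untreated libraries alone 40.7% had one. Within 5 kb these shares were 79.1% and 85.7%, so a RANKL peak at that distance was not particular to the members. The distance ran from 1 bp to 556868 bp among members, so single members differed widely in this respect.

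**Figure D4:**
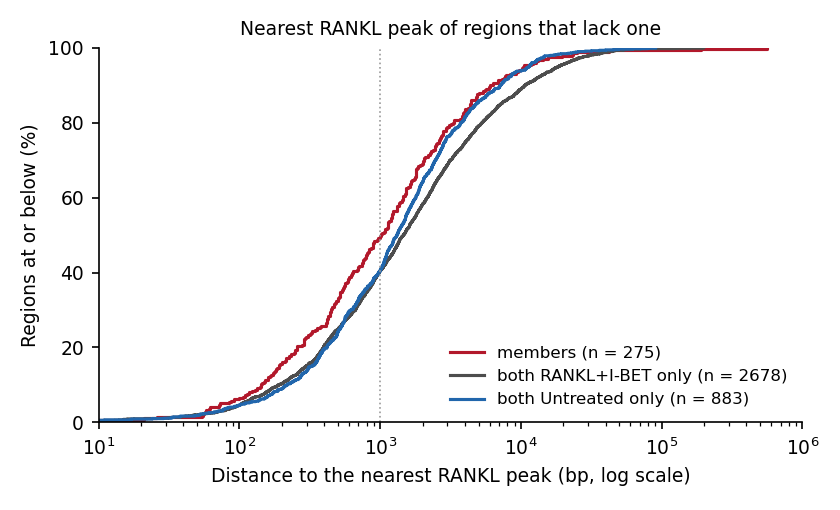
Cumulative share of regions (y axis, %) by distance to the nearest RANKL peak (x axis, bp, log scale) for the members and for 2 further classes that lack a RANKL peak. At the dotted line of 1 kb the members reach 49.5% and the other classes 40.4% and 40.7%.

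The 10 members whose weakest required peak had the highest percentile lay at genes of varied function. The first lay inside Cux1, a homeodomain transcription factor gene, at 136397780 to 136398391 on chromosome 5. Its deposited folds over local background were 3.66 and 4.31 in the RANKL+I-BET libraries, 4.73 in the I-BET library and 3.38 and 7.46 in the untreated libraries. All 5 of these libraries had the peak above the middle of their list, at the 50.2 to 61.5 percentile, and the nearest RANKL peak was 546 bp away. The member inside Srrm3, a gene for a splicing factor of neurons, at 135820466 to 135820970 on chromosome 5, had folds of 3.46 and 3.91 in the RANKL+I-BET libraries and of 4.79 and 7.11 in the untreated libraries. That in Cped1, at 22214622 to 22215089 on chromosome 6, had folds of 6.30 and 3.30 in the RANKL+I-BET libraries, 3.31 in the I-BET library and 3.67 and 5.33 in the untreated libraries. The member near Msantd1 had folds of 7.93 and 3.84 in the RANKL+I-BET libraries and of 4.79 and 4.98 in the untreated libraries. At Cux1, Cped1 and Msantd1 the folds of the groups overlapped, while at Srrm3 both untreated folds were above both RANKL+I-BET folds. Folds of separate lists are not on a shared scale, so no direction is read from them.

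Inside Dnase1l3, which encodes a nuclease secreted by macrophages and dendritic cells, the member at 7977506 to 7977966 on chromosome 14 had folds of 4.47 and 3.03 in the RANKL+I-BET libraries, 2.84 in the I-BET library and 3.38 and 4.62 in the untreated libraries. The region at 137902639 to 137903227 on chromosome 1 had no protein-coding gene within 100 kb. Its nearest gene, 159632 bp away, was Ptprc, which encodes the leukocyte phosphatase CD45. Folds there were 3.25 and 4.38 in the RANKL+I-BET libraries, 2.84 in the I-BET library and 3.38 and 7.11 in the untreated libraries. The member 2549 bp from Gzmm, a granzyme gene of natural killer cells, at 79697810 to 79698364 on chromosome 10, had folds of 3.25 and 7.01 in the RANKL+I-BET libraries and of 3.95 and 7.82 in the untreated libraries. There the library numbered 2 had the higher fold in both groups, but percentiles within each list did not keep this order. They were 41.0 and 70.5 in the first and second RANKL+I-BET libraries, and 69.8 and 63.0 in the first and second untreated libraries. The remaining 3 lay in Pinx1, a telomerase inhibitor gene, 36051 bp from LOC115489489 and 33216 bp from Trim42, with folds of 3.38 to 4.62 in the 4 required libraries.

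**Figure D5:**
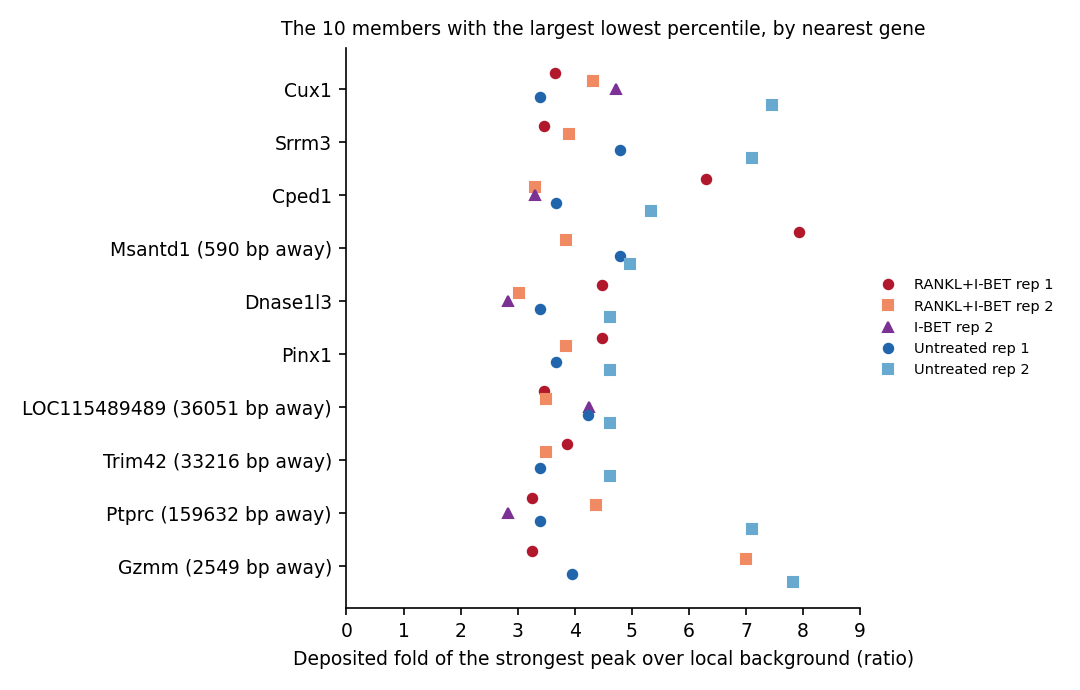
Deposited fold of the strongest peak over local background (x axis, ratio) in each library that called the region, for the 10 members whose weakest required peak had the highest percentile, named by nearest gene. Folds lie between 2.84 and 7.93 and the RANKL+I-BET points (red, orange) intermix with the untreated points (blue); 5 of the 10 have an I-BET point (purple).

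Few genes had more than 1 member. All but 10 members had a protein-coding gene within 100 kb, these were spread over 262 nearest genes, and 3 genes had 2 members each. Rubcnl, which promotes autophagosome maturation, had 1 inside the gene (75030708 to 75031157 on chromosome 14) and 1 at 32497 bp (74982966 to 74983490), both also called in the I-BET library. Trio, a guanine nucleotide exchange factor gene, had 1 inside and 1 at 11383 bp, both called in the I-BET library as well. Zc3h3, a zinc finger gene of mRNA processing and export, had 2 inside, neither called in the I-BET library.

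Genes of the 14 lists, which hold RANKL response genes and markers of other cell types, had members at a share near that of all regions. Among their 280 genes, 6 had 1 member each, which is 2.18% of members, and 1.77% of all merged regions were assigned to the same genes. The osteoclast list had members at 0 of 25 genes, as did AP-1 and early response genes (25), inflammatory cytokine genes (25), Myc and ribosome biogenesis genes (25) and BET and elongation genes (25). Members were also at 0 of 13 T lymphocyte, 12 dendritic cell, 14 fibroblast and osteoblast and 14 granulocyte and erythroid markers. Each of the 14 lists took 0.0296% to 0.247% of all regions, too small a share for a count of 0 among 275 members to say anything about a list.

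The 6 list genes with a member, by nearest gene body, were regulators of osteoclast formation, NF-kB signalling, interferon response and B cell identity. Irf8 and Rbpj, transcription factor genes whose products restrain osteoclast formation, had 1 each, and Irf8 is also on the macrophage identity list. The Irf8 member, at 120845492 to 120846151 on chromosome 8, lay 88798 bp from the gene, with folds of 2.64 and 2.56 in the RANKL+I-BET libraries, 3.31 in the I-BET library and 3.38 and 3.91 in the untreated libraries. Peaks of the 4 required libraries shared no base there. The Rbpj member, at 53544363 to 53544837 on chromosome 5, lay 10942 bp away, with folds of 2.85 and 2.36 in the RANKL+I-BET libraries and of 3.95 and 3.55 in the untreated libraries. It was not called in the I-BET library, and a RANKL peak lay 288 bp away.

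Traf3 and Tab2 encode an inhibitor of noncanonical NF-kB signalling and an adaptor that links TRAF6 to the kinase TAK1. The Traf3 member, inside the gene at 111199530 to 111200169 on chromosome 12, had folds of 2.64 and 2.76 in the RANKL+I-BET libraries and of 2.82 and 3.20 in the untreated libraries, with no base shared by all 4. The Tab2 member, at 7901077 to 7901694 on chromosome 10, lay 3954 bp from the gene, with folds of 2.64 and 3.91 in the RANKL+I-BET libraries and of 2.54 and 6.75 in the untreated libraries. In both groups the library numbered 1 had the lower fold and the lower percentile within its own list. The percentiles were 16.3 and 52.9 in the RANKL+I-BET libraries and 7.55 and 58.2 in the untreated libraries. The member 40302 bp from Irf1, an interferon-induced transcription factor gene, at 53818676 to 53819443 on chromosome 11, had folds of 3.46 and 2.22 in the RANKL+I-BET libraries and of 7.90 and 3.91 in the untreated libraries. Pax5, which encodes the transcription factor of B cell commitment, had a member inside the gene at 44555396 to 44555900 on chromosome 4, with folds of 2.85 and 3.64 in the RANKL+I-BET libraries, 3.31 in the I-BET library and 3.38 and 3.91 in the untreated libraries. Its 4 summits lay within 60 bp of each other. By nearest transcription start, Irf8 and Pax5 had no member and Dusp1 and Polr1b had 1 each, while Irf1, Rbpj, Tab2 and Traf3 had theirs under both choices.

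Further members lay at macrophage genes outside these lists, chosen after their values were seen. They are examples only, since such genes were not counted among members or all regions. On the macrophage identity list, 1 of 27 genes had a member, which is 0.364% of members, where all regions had 0.247%. Aoah, which encodes the enzyme that deacylates lipopolysaccharide, had 1 inside the gene (20801292 to 20802057 on chromosome 13), with folds of 2.85 and 5.52 in the RANKL+I-BET libraries, 8.51 in the I-BET library and 3.38 and 4.62 in the untreated libraries. Cd300e, an activating receptor gene of myeloid cells, had 1 at 5997 bp with folds of 3.05 and 3.64 in the RANKL+I-BET libraries, 5.20 in the I-BET library and 5.08 and 4.27 in the untreated libraries. Inpp5d, which encodes the phosphatase SHIP1, had 1 inside the gene with folds of 3.66 and 2.96 in the RANKL+I-BET libraries, 3.78 in the I-BET library and 4.51 and 3.20 in the untreated libraries. RANKL peaks lay 248, 200 and 190 bp from these 3 members. Sirpa, the gene of a receptor that inhibits phagocytosis, and Cbl, a ubiquitin ligase gene that acts with Src in osteoclasts, had 1 each, the first at 2594 bp and called in the I-BET library, the second inside the gene and not called there.

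Members lay within 1 kb of a gene end in 34 of 275 cases, or 12.4% (8.72% to 16.8%), where all regions had 9.01%. Of the 883 regions of both untreated libraries alone 97 lay there, and the share was 8.10% (7.10% to 9.20%) in those of both RANKL+I-BET libraries alone and 8.02% (7.61% to 8.44%) in regions called in 4 of the 6 libraries. In members whose 4 peaks shared a base it was 8.62%. Inside protein-coding genes were 155 members, 56.4% (50.3% to 62.3%), where all regions had 57.9%. In both respects the value for all regions lay inside the members' interval. The 12 strongest at gene ends included those of Msantd1 and Krtap5-4 and further ones at Sema4c, a transmembrane semaphorin gene, Hikeshi, which carries Hsp70 chaperones into the nucleus, Usp5, a deubiquitinase gene, Zfp444, Lgals12, a galectin gene of adipocytes, the synaptotagmin genes Syt6 and Syt11, the fatty acid elongase gene Elovl3, Adck5 and Efcab6.

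The 5 members that hold a start site each had a required peak at or below the 25.8 percentile of its list. At Pglyrp1, whose stretch with the NF-kB letters is shown above, the member (18884127 to 18885186 on chromosome 7) had folds of 3.25 and 3.17 in the RANKL+I-BET libraries, 5.20 in the I-BET library and 3.95 and 2.84 in the untreated libraries. Peaks of the 4 required libraries shared 168 bp, and the nearest RANKL peak was 2070 bp away. At Sfrp2 (83765690 to 83766880 on chromosome 3) folds were 3.05 and 2.22 in the RANKL+I-BET libraries, 3.78 in the I-BET library and 3.95 and 3.55 in the untreated libraries, but no base was shared by all 4. At Krtap5-4 (142303341 to 142303715 on chromosome 7) they were 2.85 and 2.63 in the RANKL+I-BET libraries and 3.67 and 4.27 in the untreated libraries, with 235 bp shared by all 4 and no call in the I-BET library. The other 4 of the 5 were called in the I-BET library.

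By chromosome, members were found on all but the Y, with 28 on chromosome 3 (10.2%, where all regions had 7.05%) and 22 on chromosome 4 (8.0%, where all regions had 6.33%) as the highest counts. Chromosome 16 held 3 (1.09%, where all regions had 3.38%), chromosome 12 held 5 (1.82%, where all regions had 4.04%) and the X chromosome 1 (0.364%, where all regions had 0.946%).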

How the data were processed

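ATAC-seq libraries from 50000 cells each gave paired reads of 100 bp each, as the protocols state. The submitters' processing notes name MACS2, Bowtie2, cutadapt, FastQC, SAMtools, Picard and bedtools, and the mm10 build. Their versions and settings are not given in the sources used here. The authors deposited 1 peak list per library with a score, a fold (ratio of pileup over local background), a -log10 p-value, a -log10 q-value and a summit per peak. The deposited score is the whole part of 10 times the -log10 p in 100% of lines. Every sample has its own peak calls, with no pooling of replicates.

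Regions, calls and the member rule are as given above, computed with Python 3.11.15, pandas 2.3.3 and scipy 1.17.1. Merging and class assignment were tested on simulated lists. Percentiles rank a peak's -log10 p within its list. Genes are 21896 protein-coding genes of RefSeq for GRCm38.p6, taken as the nearest gene body within 100 kb. The gene table holds no strand and the promoter table covers 17491 of these genes, with 0 promoters on chromosome 18, so gene bodies were used; 7 members on chromosome 18 could not be checked for a start site. Motifs could be read only in promoters, as no genome sequence was used here. Named regions followed a rule: the 10 members with the highest and the 5 with the lowest percentile of their weakest required peak, genes with 2 or more members, list genes, 12 at gene ends and 5 near misses. The start-site members and the further macrophage and lipid genes lie outside this rule and were chosen after their values were seen. Members, lists and rule were chosen with earlier results of these data known. Shares carry exact binomial (Clopper-Pearson) 95% bounds for counting error alone. No test between groups was made, since the rule used these calls and the remaining group has 1 library.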

Additional observations from a re-analysis of the deposited data

How the results depend on the processing

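The number of members depended strongly on the processing. Against 275 it was 36 with a -log10 q of at least 5 in all lists, 1 with that threshold in RANKL+I-BET and untreated libraries and no RANKL peak of any strength, 119 with peaks over at least 50% of the region, 139 with no RANKL peak within 1 kb, 102 when the I-BET call was required and 174 with a base covered by all 4 libraries (chosen after seeing the data). Leaving out 1 library in turn, which drops a condition and so cannot lower the count, gave 395 to 1128. It was 202 with a -log10 q of at least 2, 221 with lists of equal length and 346 with 500 bp around each summit. A replicate block, the same pattern within 1 replicate number, gave 4868 regions for number 1 and 10689 for number 2. Nothing in the labels ties a number to a shared day or batch.

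The share called in the I-BET library was 11.1%, 22.8% and 0% under the -log10 q settings of 5, of 2 and of 5 with no RANKL peak, 46.2% with lists of equal length, 28.1% with no RANKL peak within 1 kb, 23.2% in the block of number 1 and 24.5% to 58.9% without 1 library. The share near gene ends was 100% for the single region at the strictest setting, 8.63% with no RANKL peak within 1 kb, 8.35% in the block of number 2, 8.62% with a shared base, 8.21% to 12.6% without 1 library and 32.7% within 5 kb of an end. The share inside genes was 0% for that single region and 55.8% to 63.3% without 1 library. Median length, 605 bp, was 768 and 539 bp under the settings of 5, 894.5 bp around summits, 557 bp with no RANKL peak within 1 kb, 470 and 477 bp in the blocks, 663 bp with the I-BET call, 525 bp with a shared base and 504 to 704.5 bp without 1 library. The cause of these shifts was not tested. Settings that only add a condition to the members cannot hold more regions, by construction. Leaving out a library, or using the libraries of a single replicate number, only drops conditions, so those counts cannot be lower. A -log10 q threshold in all lists also removes RANKL peaks, so it need not lower the count. At 5, 35 of the 36 regions had a weaker RANKL peak. Members at list genes numbered 6, against 5 within 50 kb, where Irf8 is lost, and 6 by nearest transcription start, where Irf8 and Pax5 are lost and Dusp1 and Polr1b enter. Depth is unknown, and a change in signal within a region called in all groups cannot be seen in peak lists.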

Other observations

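Genes of lipid metabolism had members too, and these were picked after their values were seen, with no test. No list of such genes was counted among members or all regions, so they are examples and show no excess. Srebf1, the transcription factor gene of fatty acid and sterol synthesis, had a member inside the gene (60211699 to 60212767 on chromosome 11) with folds of 3.25 and 2.56 in the RANKL+I-BET libraries, 3.78 in the I-BET library and 3.67 and 3.91 in the untreated libraries. Fasn, the fatty acid synthase gene, had a member inside the gene (120809510 to 120811259 on chromosome 11) with folds of 3.05 and 2.76 in the RANKL+I-BET libraries, 2.84 in the I-BET library and 3.10 and 3.91 in the untreated libraries. Plin2, a lipid droplet coat protein gene, had a member inside the gene with folds of 2.64 and 3.30 in the RANKL+I-BET libraries, 2.84 in the I-BET library and 2.82 and 6.04 in the untreated libraries. In none of these 3 did peaks of all 4 required libraries share a base, and RANKL peaks lay 143, 421 and 58 bp away. Mbtps1, which encodes the protease that activates Srebf proteins, had a member inside the gene with 117 bp shared by all 4 libraries, no call in the I-BET library and the nearest RANKL peak 6817 bp away.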
